A study of Xenopus laevis with 6 samples.

Results

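Genes for the enzymes and proteins that write, erase and read chemical marks on histones and DNA were followed in Xenopus laevis animal pole explants. They were selected from the deposited gene table by symbol alone, after removal of the suffix L or S that marks the homeologs, the paired gene copies of this allotetraploid frog. The symbols were kdm, kmt, kat, hdac, sirt, prmt, setd, ehmt, suv39h, ezh, dnmt, tet or brd followed by a digit, together with suz12, eed and dot1l. The rule found 134 of 49281 genes, made of 73 L and 61 S homeologs of 84 symbols, and 50 symbols had both homeologs. By role they were 67 writers, 57 erasers and 10 readers. No measured value entered this rule, but the members were chosen with earlier results of these data known.

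The study asked how explants brought to a neural crest state with small molecules differ in their transcriptome. All 6 libraries came from wild-type embryos and were collected at stage 17. Explants received either K02288 with CHIR99021 (3 libraries, labelled as reprogrammed to neural crest) or DMSO (3 libraries, labelled epidermal), in each case over stages 9 to 17. K02288 inhibits type I receptors of bone morphogenetic protein, and CHIR99021 inhibits glycogen synthase kinase and so activates Wnt signalling. The labels name no clutch, embryo or number of explants behind a library, so the p-values rest on library-to-library spread alone, part of which may be technical. Libraries are called a, b and c within each group, after the letters of the table's columns.

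Histone lysine methyltransferases, arginine methyltransferases, acetyltransferases and DNA methyltransferases place marks on chromatin. Demethylases, deacetylases and the TET dioxygenases remove them or start their removal, and bromodomain proteins bind acetylated lysines. Polycomb repressive complex 2 methylates lysine K27 of histone H3 at silent developmental genes, whereas Trithorax-type complexes methylate lysine K4 of histone H3 at promoters and enhancers. In vertebrate embryos these enzymes act while pluripotent cells take up fates such as epidermis and neural crest.

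The libraries held 33706389 to 43155031 reads on genes. Of 18 neural crest marker genes, 17 were higher in treated explants, and their summed normalized count was 641 to 900.1 in DMSO and 101555 to 114378 in treated libraries. Of these 18, foxd3.S, sox10.L and sox10.S had no read in any DMSO library. Of 14 epidermal marker genes 12 were lower, with summed counts of 1263516 to 1673076 in DMSO against 513510, 204977 and 263683 in treated a, b and c. All 10 multiciliated cell markers and all 8 ionocyte markers were lower. Of 21 tested replication and division genes 14 were higher and 2, both homeologs of the mitotic kinase cdk1, were lower, and the summed count was 49405 to 55624 in DMSO and 99228 to 115606 in treated libraries. Of 4 tested mesoderm markers 1 was higher and 1 lower, and the same held for 3 tested endoderm markers. These markers moved with the treatment as the enzyme genes did, and their part in the changes below was not tested. In bulk RNA, fewer cells of a type and less RNA per cell cannot be told apart.

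Histone and DNA modification genes moved upward more often than downward, and the writers carried most of that. Of the 134 members, 124 had a mean of at least 10 normalized counts (reads divided by the library's size factor) over the 6 libraries and were tested with limma, a linear model on log2(normalized count + 1). At a p adjusted over all genes (Benjamini-Hochberg) under 0.05, 53 members were higher (42.7%), 14 were lower (11.3%) and 57 did not pass. Among all 22932 genes tested, 55.8% passed, 26.1% as higher and 29.7% as lower. The members' share that passed, 54.0%, was thus near the background, and the balance between directions was not. The median log2 fold change was 0.33 over the members and 0.01 over all genes. Of these, hdac9.L and kat2b.S entered the test through 1 group only.

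Among 62 tested writers 33 were higher (53.2%) and 5 lower (8.06%), with a median log2 fold change of 0.62. Among 52 tested erasers 15 were higher (28.8%) and 9 lower (17.3%), with a median of 0.04. Of all genes, 26.1% were higher and 29.7% lower, with a median of 0.01. The erasers' share called higher and their median were thus near those of all genes, while their share called lower was smaller. Among 10 tested readers 5 were higher and none lower, with a median of 0.32. The changes were moderate in size: the median absolute log2 fold change was 0.62 over the members and 0.89 over all genes, and 29 of the members called higher rose at least 2-fold and 5 of those called lower fell at least 2-fold. These are 23.4% and 4.03% of the tested members, against 15.9% and 24.4% of all genes. Libraries of a group also differed less in the members. Their median coefficient of variation was 12.3% in DMSO and 14.8% in treated libraries, against 17.6% and 23.9% over all genes. These comparisons of fold size and spread with all genes were not matched for count level. Groups did not overlap in 83 members (66.9%), near the 64.9% of all genes. The rule that names the largest rises and falls, given under processing, asked for groups that do not overlap. For the genes it named, that trait therefore adds no support.

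Scaling set part of the balance. With upper quartile scaling the median of all genes went from 0.01 to 0.30 on the log2 scale. The members then had a median of 0.62, with 69 higher and 9 lower, beside 59.8% of all genes that passed, 35.4% as higher and 24.4% as lower. Under it 41 writers were higher and 4 lower, 21 erasers were higher and 5 lower, and 7 readers were higher. Leaving out each library in turn kept 44 of the 67 calls in all 6 fits, 36 of them higher and 8 lower, and no call changed direction.

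**Figure D1:**
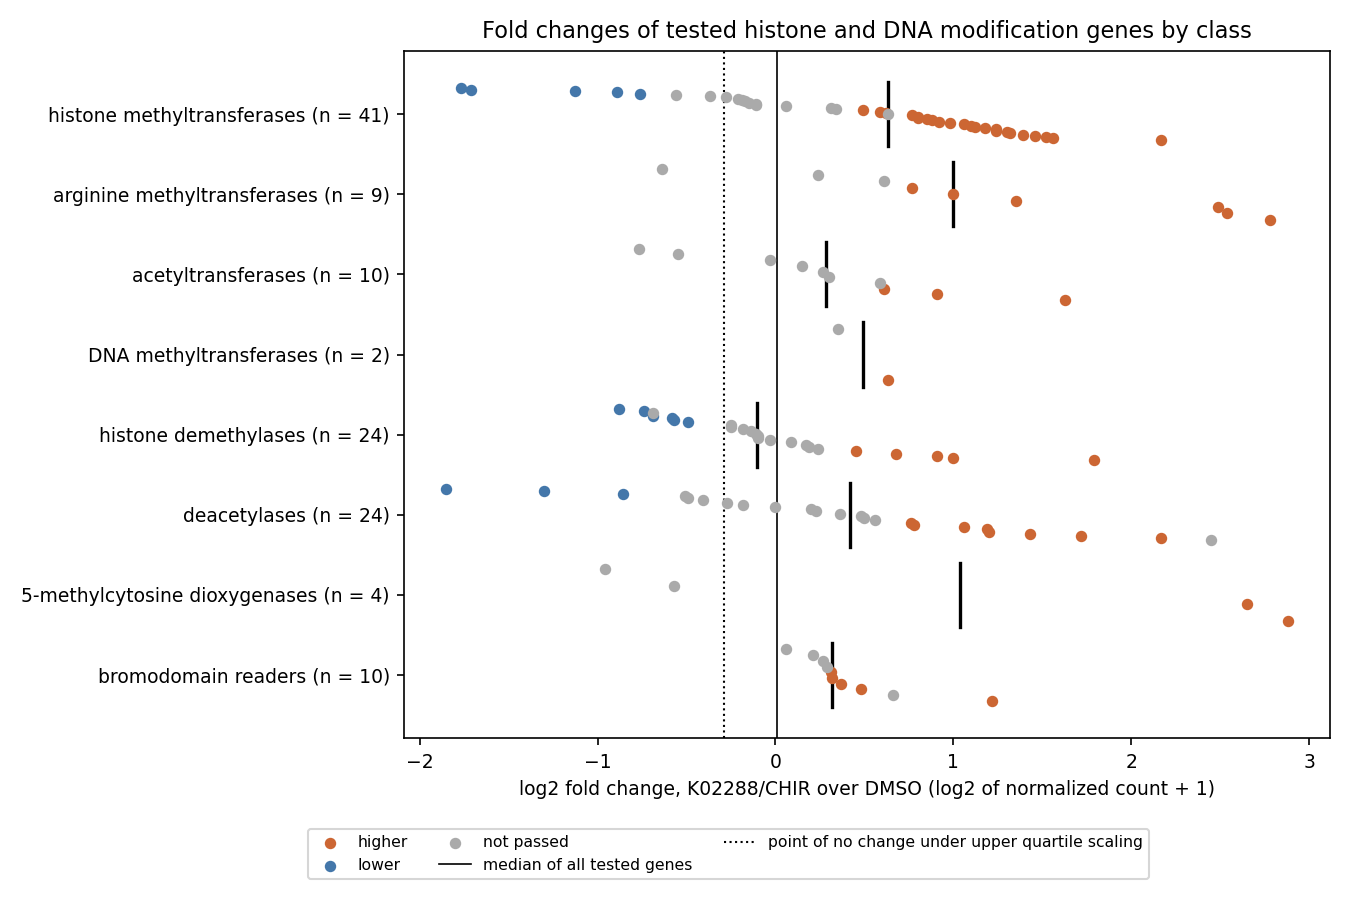
Log2 fold change of each of the 124 tested members (K02288/CHIR over DMSO, x axis, log2 of normalized count + 1) by enzyme class (y axis). Orange points passed as higher, blue as lower, grey did not pass; the bar in each class is its median, the solid line the median of all genes and the dotted line the zero point under upper quartile scaling. The points of prmt1.L and of both homeologs of prmt5 and tet3 lie farthest to the right, and histone demethylases lie on both sides of zero.

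**Figure D2:**
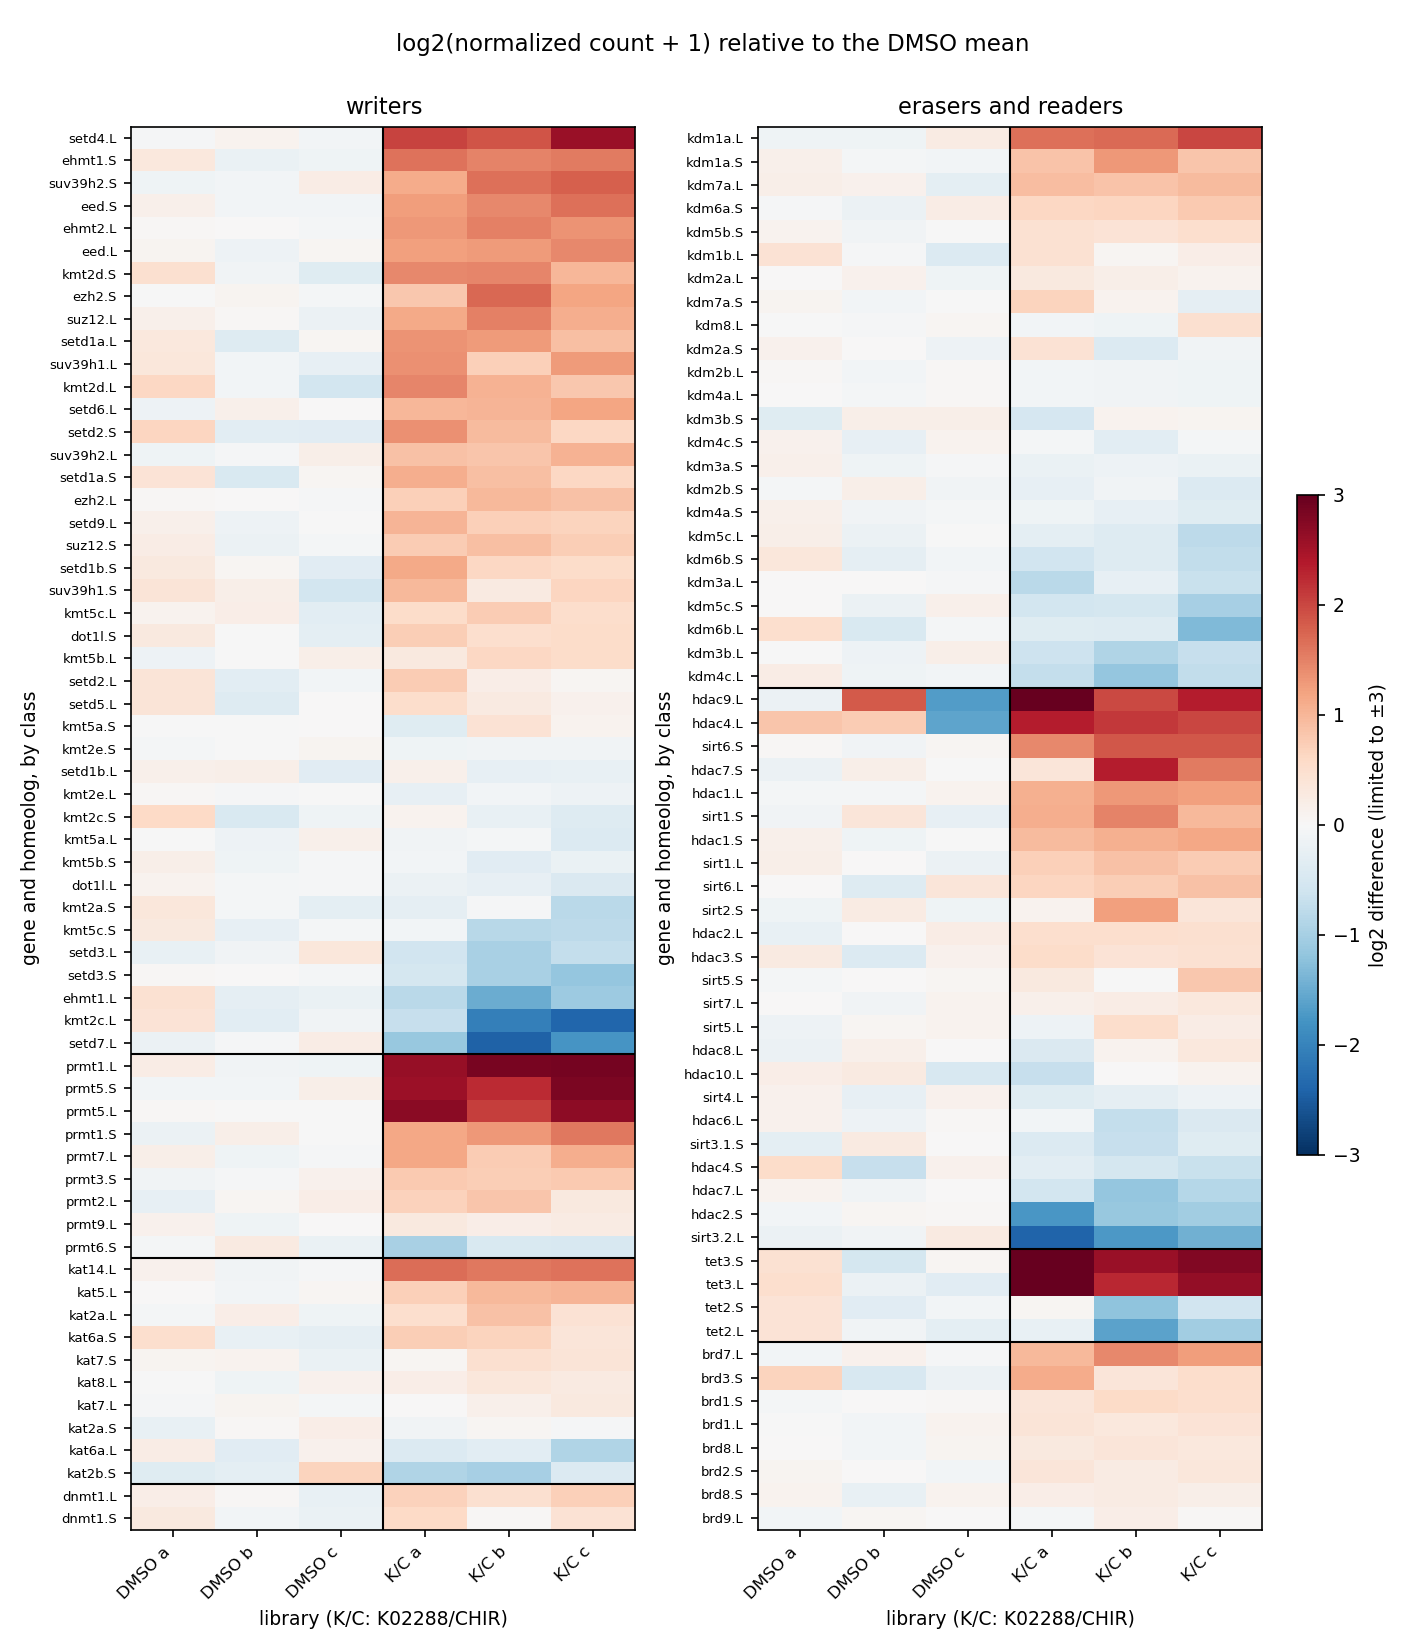
Difference of log2(normalized count + 1) from the DMSO mean for tested members (y axis, grouped by class and ordered by fold change) in each library (x axis), with the colour limited to 3 in either direction. Red is higher and blue lower than the DMSO mean; prmt1.L and both homeologs of prmt5 and tet3 are deep red in all treated libraries, and sirt3.2.L, setd7.L and kmt2c.L are the deepest blue of the members called lower.

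All 6 core genes of Polycomb repressive complex 2 were higher in treated explants, against 26.1% of all genes, with a median log2 fold change of 1.24. The complex holds the methyltransferase Ezh2 and the scaffold subunits Eed and Suz12. Normalized counts of eed.S were 545 in DMSO a, 468 in DMSO b and 467 in DMSO c, and 1180, 1338 and 1561 in the treated libraries, listed here and below in the order of their letters. Every treated library lay above every DMSO library, a rise of 1.46 ± 0.16 on the log2 scale (standard error, n = 3 per group, limma adjusted p = 4.78e-04). Its homeolog eed.L rose by 1.32 ± 0.15 (limma adjusted p = 4.80e-04). For ezh2.L the counts were 5114, 5061 and 4903 in DMSO and 8189, 9822 and 9278 in treated libraries, again without overlap. It rose by 0.85 ± 0.11 (limma adjusted p = 9.39e-04), and ezh2.S, with 276, 295 and 269 in DMSO and 493, 919.5 and 637 in treated libraries, rose by 1.24 ± 0.25 (limma adjusted p = 0.00502). The homeologs suz12.L and suz12.S rose by 1.24 ± 0.16 and 0.80 ± 0.14 (limma adjusted p = 7.90e-04 and 0.00289). All 6 calls held without any one library and under upper quartile scaling.

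The other gene for the catalytic subunit, ezh1, was barely detected. Its normalized counts were at most 8.29 for ezh1.L and at most 14.2 for ezh1.S in any library, under the filter for testing. Several partners of the complex rose as well: the histone chaperone rbbp4, with log2 fold changes of 1.62 ± 0.12 for rbbp4.L and 1.53 ± 0.13 for rbbp4.S, and the accessory subunit mtf2, at 1.40 ± 0.11 for mtf2.S (limma adjusted p = 1.50e-04, 2.24e-04 and 1.61e-04). The rise of the Polycomb genes ran beside that of the replication genes given above, such as mcm5.L at 1.86 ± 0.13 (limma adjusted p = 1.26e-04), and the part of cell division in it was not tested.

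Writers of methylation at K9 of histone H3, a mark of silent chromatin, were higher in 5 of 7 tested genes and lower in 1. Of all genes, 26.1% were higher and 29.7% lower. The median log2 fold change of these writers was 1.12. These are the G9a and GLP enzymes, encoded by ehmt2 and ehmt1, which place 1 or 2 methyl groups, and the suv39h enzymes, which place the trimethyl form. Normalized counts of ehmt2.L were 2375, 2329 and 2222 in DMSO and 5703, 6600 and 5854 in treated libraries. The groups stood well apart, with a rise of 1.39 ± 0.11 on the log2 scale (limma adjusted p = 1.80e-04). The homeologs of its partner ehmt1 went in opposite directions, as described with the homeolog pairs. The suv39h2 homeologs rose by 0.92 ± 0.14 for L and 1.52 ± 0.23 for S (limma adjusted p = 0.00153 and 0.00152). Of the suv39h1 pair, suv39h1.L rose by 1.12 ± 0.26 (limma adjusted p = 0.00969), while suv39h1.S had a value of 0.63 ± 0.36 that missed the threshold (limma adjusted p = 0.181).

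Writers of methylation at K4 of histone H3, of the SET1 and MLL family, were split. Of 11 tested genes 5 were higher (45.5%) and 1 was lower (9.09%), against 26.1% and 29.7% of all genes. Their median log2 fold change was −0.11, and it turned to 0.18 under upper quartile scaling. That of all genes went from 0.01 to 0.30. Normalized counts of kmt2d.S, an enhancer methyltransferase gene, were 3157, 2131 and 1763 in DMSO and 6229, 6262 and 4554 in treated libraries. DMSO a was the highest control but stayed below every treated library, and the rise was 1.30 ± 0.24 (limma adjusted p = 0.00378). The L homeolog rose by 1.10 ± 0.31 (limma adjusted p = 0.0210), and this call was lost without DMSO b, DMSO c or treated b (limma adjusted p = 0.0602, 0.0564 and 0.0505). Its close relative kmt2c went the other way in 1 homeolog. Normalized counts of kmt2c.L were 6284, 3786 and 4349 in DMSO against 2911, 1129 and 904 in treated libraries, without overlap, a fall of 1.71 ± 0.44 on the log2 scale (limma adjusted p = 0.0145). The adjusted p of kmt2c.L was 0.0515 without DMSO a and 0.050, just above the threshold, without treated b. The founding MLL gene, present under the symbol rule as kmt2a.S, had a value of −0.37 ± 0.26 and missed the threshold (limma adjusted p = 0.260). A further kmt2a entry, with a provisional identifier and more reads, also did not pass and is given in the closing section.

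Both setd1a homeologs, chosen after their values were seen, were higher, at 1.18 ± 0.22 for setd1a.L and 0.88 ± 0.25 for setd1a.S (limma adjusted p = 0.00363 and 0.0224). They encode a catalytic subunit of the SET1 complex. The call on setd1a.S was lost without DMSO b, DMSO c or treated b (limma adjusted p = 0.0541, 0.0551 and 0.0601). The related setd1b.S rose by 0.77 ± 0.24 (limma adjusted p = 0.0289), with the call lost without DMSO b, DMSO c or treated a (limma adjusted p = 0.0643, 0.0870 and 0.0602). Across the 14 tested genes of the kmt2, setd1, setd2 and setd5 families, a set put together after the values were seen, DMSO a was the highest control library in 12 and treated a the highest treated library in 10. Over all genes these libraries were highest in 33.3% and 40.6%. DMSO a also had 11.1% of its reads aligned at more than 1 place, against 4.93% to 5.91% in the other libraries. The part of this difference in the values was not tested. Without DMSO a or treated b, no gene of the SET1 and MLL family was lower, against 25.0% and 27.3% of all genes. Without DMSO b, DMSO c or treated b the number higher was 2, 2 and 3, against 21.7%, 21.9% and 22.1% of all genes.

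Other histone lysine methyltransferases included the largest rise and the largest fall of their class. Normalized counts of setd4.L were 208, 228 and 200.1 in DMSO and 873, 784 and 1286 in treated libraries. No libraries overlapped, and the rise was 2.17 ± 0.22 on the log2 scale (limma adjusted p = 3.57e-04). Counts of setd7.L, whose product in mammals methylates histone H3 and several other proteins, were 359, 393 and 472 in DMSO and 185, 74.7 and 118 in treated libraries. The fall of 1.77 ± 0.34 (limma adjusted p = 0.00453) left each treated library below each control. Both homeologs of setd3, which in mammals encodes an actin histidine methyltransferase, fell, by 0.76 ± 0.21 for setd3.L and 0.89 ± 0.20 for setd3.S (limma adjusted p = 0.0215 and 0.00829). The call on setd3.L did not hold without DMSO c, treated b or treated c (limma adjusted p = 0.0706, 0.0616 and 0.0519) or with upper quartile scaling (0.0907).

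Of the dot1l and setd2 pairs and the kmt5 genes, which methylate K79 and K36 of histone H3 and K20 of histone H4, 4 homeologs were called, all as higher. Over all genes, 26.1% were called higher and 29.7% lower. For dot1l, whose product methylates K79 of histone H3, dot1l.S rose by 0.59 ± 0.18 (limma adjusted p = 0.0285) and dot1l.L had a value of −0.28 ± 0.12, or 0.01 under upper quartile scaling, that did not pass (limma adjusted p = 0.0839). The dot1l.S call was lost without DMSO b, DMSO c, treated a or treated c (limma adjusted p = 0.0726, 0.0796, 0.0609 and 0.0679). The K36 methyltransferase gene setd2.S was the only called member whose groups overlapped, with 982, 504 and 489 in DMSO and 1616, 1205 and 966 in treated libraries. Its log2 fold change was 0.98 ± 0.32 (limma adjusted p = 0.0353, edgeR 0.0522), lost without DMSO b, DMSO c, treated a or treated b (limma adjusted p = 0.106, 0.109, 0.0767 and 0.0784). Of 6 tested kmt5 genes, which act on K20 of histone H4, kmt5b.L and kmt5c.L rose, by 0.49 ± 0.16 and 0.62 ± 0.17 (limma adjusted p = 0.0350 and 0.0196), and none fell. With the library letter as a block kmt5c.S also passed, as lower (limma adjusted p = 0.0196). The share of kmt5 genes called higher was 33.3%. Their median of −0.06 turned to 0.23 under upper quartile scaling, while that of all genes went from 0.01 to 0.30. Without treated b neither kmt5b.L nor kmt5c.L passed (limma adjusted p = 0.0974 and 0.0623), and kmt5b.L was also lost without DMSO a, DMSO b or treated c (limma adjusted p = 0.110, 0.0908 and 0.0965).

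Arginine methyltransferases had the highest median of the 4 classes of writers. Of 9 tested prmt genes 6 were higher (66.7%, against 26.1% of all genes) and none lower (against 29.7%). Their median log2 fold change was 1.00. Prmt1 places asymmetric dimethylarginine on histone H4 and many RNA-binding proteins. Normalized counts of prmt1.L were 15307, 12257 and 11936 in DMSO and 80675, 94046 and 96255 in treated libraries. Treated libraries formed a tight group far above the controls, a rise of 2.78 ± 0.14 on the log2 scale, or 6.88-fold (limma adjusted p = 7.18e-05). Counts of prmt1.S were 35979, 45491 and 40210 in DMSO and 90486, 100114 and 120645 in treated libraries, a smaller rise of 1.35 ± 0.16 (limma adjusted p = 5.70e-04).

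Prmt5 makes symmetric dimethylarginine, on histones and on splicing factors. Normalized counts of prmt5.L were 253, 242 and 242 in DMSO and 1607, 1045 and 1583 in treated libraries. The controls were almost equal and all treated libraries were higher, with treated b the lowest of them, a rise of 2.49 ± 0.20 (limma adjusted p = 1.83e-04). Counts of prmt5.S were 56.9, 57.0 and 69.2 against 362, 292 and 433, a rise of 2.54 ± 0.24 (limma adjusted p = 2.95e-04). The other increases, in genes chosen after their values were seen, were prmt7.L at 1.00 ± 0.16 and prmt3.S at 0.77 ± 0.14 (limma adjusted p = 0.00210 and 0.00303). Genes for prmt2, prmt6 and prmt9 ranged from −0.64, for prmt6.S, to 0.61 and did not pass. Under upper quartile scaling prmt2.L and prmt9.L also passed as higher (limma adjusted p = 0.0362 and 0.0281). So 8 of 9 prmt genes were higher under it (88.9%, against 35.4% of all genes). The 6 calls made without that scaling all held without any one library. A further prmt6 entry, with a provisional identifier, was higher and is given in the closing section. Outside the symbol rule, the related arginine methyltransferase carm1 had carm1.S at 1.49 ± 0.15 (limma adjusted p = 3.26e-04).

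**Figure D3:**
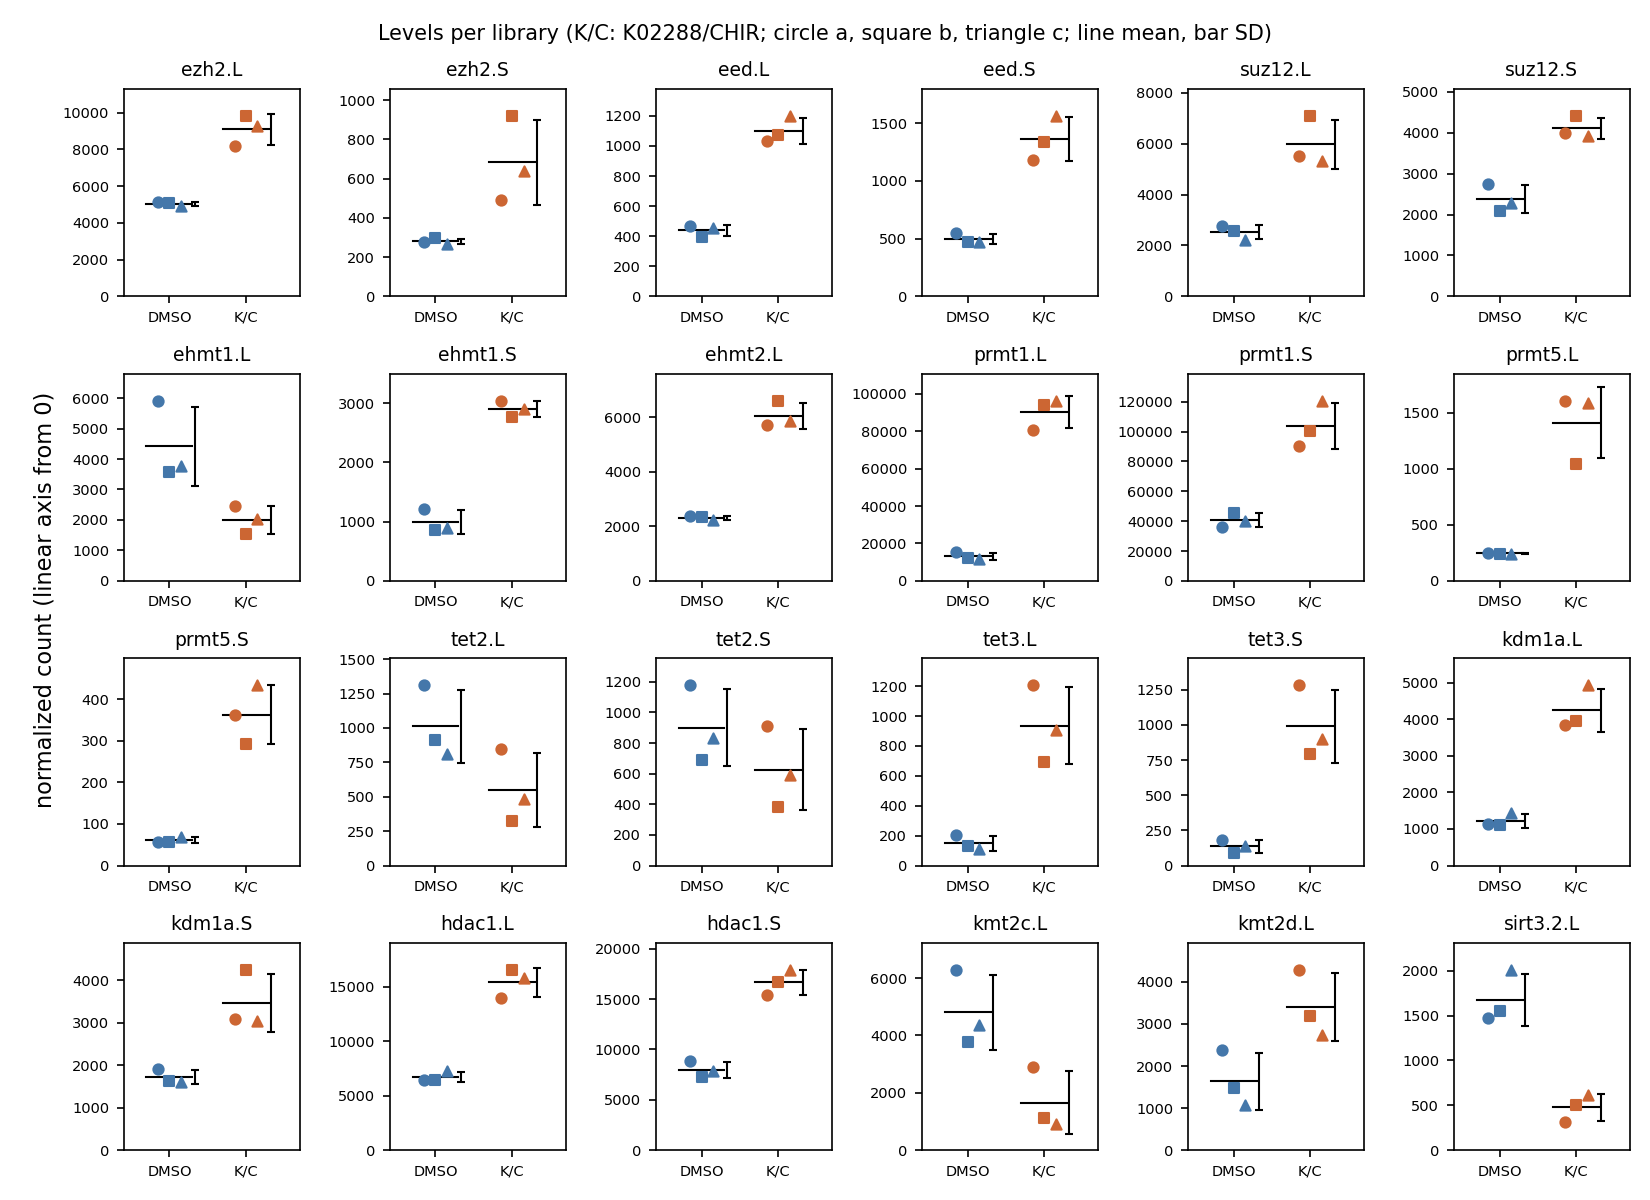
Normalized count (y axis, linear, from 0) of selected members in each of the 3 DMSO and 3 K02288/CHIR libraries (x axis); the circle is library a, the square b and the triangle c, the line is the group mean and the bar its SD (n = 3). In the panels of prmt1.L, prmt5.L and tet3.S all treated libraries lie above all DMSO libraries, and in kmt2c.L and sirt3.2.L all lie below.

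Acetyltransferases changed less: 3 of 10 tested genes were higher (30.0%, near the 26.1% of all genes) and none lower (against 29.7%). Their median log2 fold change was 0.29. Under upper quartile scaling 6 were higher (60.0%, against 35.4% of all genes). Normalized counts of kat14.L, a subunit of the ATAC acetyltransferase complex, were 989, 839 and 887 in DMSO and 2897, 2684 and 2810 in treated libraries. The libraries within each group were close together, and the rise was 1.63 ± 0.12 (limma adjusted p = 1.50e-04). The Tip60 gene kat5.L, chosen after its values were seen, rose by 0.91 ± 0.13 (limma adjusted p = 0.00149). The Gcn5 gene kat2a.L rose by 0.61 ± 0.17 (limma adjusted p = 0.0217), and the call went when leaving out DMSO a, DMSO c or treated b (limma adjusted p = 0.0666, 0.0714 and 0.0583), and kat2a.S stood at −0.03 ± 0.16, or 0.26 under upper quartile scaling (limma adjusted p = 0.900). Its paralog kat2b.S had few reads, with 17.8 ± 8.10 normalized counts in DMSO and 9.63 ± 2.41 in treated libraries (SD, n = 3), and missed the threshold (limma adjusted p = 0.215).

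The maintenance DNA methyltransferase dnmt1, which copies methylation onto new DNA strands, was the only gene the rule found for DNA methyltransferases. Normalized counts of dnmt1.L were 836, 753 and 624 in DMSO and 1187, 1020 and 1209 in treated libraries, without overlap. It rose by 0.63 ± 0.16 (limma adjusted p = 0.0144), a call lost without treated c (limma adjusted p = 0.0515). For dnmt1.S the counts of 1664, 1292 and 1189 overlapped with 2054, 1408 and 1838, and the value of 0.35 ± 0.20 did not pass (limma adjusted p = 0.170). Under upper quartile scaling both homeologs passed as higher. Its partner uhrf1, which binds hemimethylated DNA and was chosen after its values were seen, did not pass in either homeolog, at 0.20 ± 0.15 for uhrf1.L and 0.07 ± 0.22 for uhrf1.S (limma adjusted p = 0.287 and 0.817).

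Of the dioxygenases that oxidise 5-methylcytosine, tet3 rose in both homeologs and tet2 did not pass in either. Normalized counts of tet3.S were 180.0, 91.1 and 137 in DMSO and 1282, 791 and 898 in treated libraries. Counts of tet3.L were 205, 128 and 114 in DMSO and 1206, 692 and 906 in treated libraries. In both, library a was the highest of its group and the groups were far apart. The rises were 2.88 ± 0.31 for tet3.S, or 7.35-fold, and 2.65 ± 0.30 for tet3.L, or 6.29-fold (limma adjusted p = 4.22e-04 and 5.42e-04), and both held without any one library. For tet2.L the counts were 1310, 915 and 807 in DMSO and 845, 323 and 481 in treated libraries, with treated a inside the control range. Its value was −0.96 ± 0.37 and that of tet2.S −0.57 ± 0.35 (limma adjusted p = 0.0603 and 0.197). Both passed as lower with the library letter as a block (limma adjusted p = 0.0154 and 0.0266) and without treated a (0.00584 and 0.0359). Downstream, the glycosylase gene tdg.S, whose product excises oxidised 5-methylcytosine and which was chosen after its values were seen, was higher by 0.53 ± 0.13 (limma adjusted p = 0.0106).

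Of 24 tested histone demethylase genes 5 were higher (20.8%) and 6 lower (25.0%), near the 26.1% and 29.7% of all genes. Their median log2 fold change was −0.10. Under upper quartile scaling 6 were higher (25.0%) and 2 lower (8.33%), against 35.4% and 24.4% of all genes. The median of these demethylase genes then turned to 0.19, and that of all genes went from 0.01 to 0.30. Leaving out DMSO a, DMSO c or treated c left 3 genes lower in each case (12.5%, against 25.0%, 25.1% and 25.8% of all genes). The largest change was that of kdm1a, the LSD1 enzyme that removes methyl groups from K4 of histone H3. Normalized counts of kdm1a.L were 1123, 1118 and 1450 in DMSO and 3856, 3949 and 4930 in treated libraries. The treated libraries were all above the controls, and the rise was 1.79 ± 0.16 (limma adjusted p = 2.59e-04), with kdm1a.S at 1.00 ± 0.17 (limma adjusted p = 0.00251). Of the genes for its CoREST partners, rcor2.L went from 217, 169 and 236 to 3281, 3956 and 2804, a log2 fold change of 4.01 ± 0.20 (limma adjusted p = 7.18e-05). The others, chosen after their values were seen, were rcor1.L at 1.10 ± 0.22, rcor3.L at −1.51 ± 0.48 and rcor3.S at −0.20 ± 0.40 (limma adjusted p = 0.00559, 0.0318 and 0.696). The rcor3.L call was lost with upper quartile scaling (0.0601) and without DMSO a, b or c or treated b (limma adjusted p = 0.0881, 0.0693, 0.0872 and 0.0541).

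The erasers of K27 methylation on histone H3 were split. The K27 demethylase gene kdm6a.S rose by 0.68 ± 0.15 (limma adjusted p = 0.00752). Its relative kdm6b.S fell by 0.57 ± 0.20 (limma adjusted p = 0.0428), with 1618, 1049 and 1203 in DMSO and 847, 965 and 761 in treated libraries. That fall was close to the threshold: it was lost with the library letter as a block (limma adjusted p = 0.0508), with upper quartile scaling (0.253), and in fits that left out DMSO a, DMSO c, treated a, treated b or treated c (0.120, 0.0811, 0.0680, 0.0514 and 0.127). For kdm6b.L the groups overlapped and the value of −0.69 ± 0.33 did not pass (limma adjusted p = 0.118). Further kdm6a entries, with provisional identifiers, did not pass and are given in the closing section.

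Of the K9 demethylase genes of the kdm3 and kdm4 families, kdm4c.L and kdm3b.L fell by 0.88 ± 0.20 and 0.74 ± 0.15 (limma adjusted p = 0.00875 and 0.00564). Normalized counts of kdm4c.L were 646, 503 and 524 in DMSO and 335, 246 and 330.0 in treated libraries. Those of kdm3b.L were 1204, 1084 and 1357 in DMSO and 786, 647 and 743 in treated libraries. In both genes all treated libraries lay below all controls, which the rule that names the largest falls requires. Both falls held without any one library and under upper quartile scaling. The fall of kdm3a.L by 0.58 ± 0.16 (limma adjusted p = 0.0199) was lost in fits that left out DMSO a, b or c or treated c (limma adjusted p = 0.0566, 0.0570, 0.0510 and 0.0686) and with upper quartile scaling (0.203). The other tested genes of these families, kdm3a.S, kdm3b.S, kdm4a.L, kdm4a.S and kdm4c.S, had values of −0.25 to −0.10 that did not pass and that lay above 0 under upper quartile scaling, at 0.04 to 0.19. Also chosen after its values were seen, kdm7a.L, whose product in mammals removes methyl groups from K9 and K27, rose by 0.91 ± 0.25 (limma adjusted p = 0.0187), and leaving out DMSO c or treated c ended that call (0.0604 and 0.0544). A relative outside the symbol rule, jmjd1c, fell in both homeologs, by 1.47 ± 0.18 for jmjd1c.S and 1.92 ± 0.26 for jmjd1c.L (limma adjusted p = 7.01e-04 and 0.00110). Of the K4 demethylase genes, kdm5c.S fell by 0.69 ± 0.17 and kdm5b.S, chosen after its values were seen, rose by 0.45 ± 0.11 (limma adjusted p = 0.0123 and 0.0120). Under upper quartile scaling kdm5c.S did not pass (limma adjusted p = 0.0682).

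Deacetylases were higher in 8 (33.3%) and lower in 3 (12.5%) of 24 tested genes, against 26.1% and 29.7% of all genes. Their median log2 fold change was 0.42. Under upper quartile scaling 13 were higher and 3 lower, and without treated b or treated c 5 were higher. Hdac1, the catalytic subunit of several corepressor complexes, rose in both homeologs. Normalized counts of hdac1.L were 6400, 6452 and 7254 in DMSO and 13939, 16541 and 15778 in treated libraries. Counts of hdac1.S were 8806, 7266 and 7866 in DMSO and 15423, 16681 and 17892 in treated libraries. The groups were far apart in both, with rises of 1.20 ± 0.12 and 1.06 ± 0.12 (limma adjusted p = 3.24e-04 and 5.49e-04) that held without any one library. Its close relative hdac2 was covered by few reads, and hdac2.S fell from 52.3, 58.0 and 56.8 to 16.0, 24.9 and 26.7, by 1.30 ± 0.34 (limma adjusted p = 0.0164). That call was lost without DMSO b or DMSO c (limma adjusted p = 0.0563 and 0.0536), and hdac2.L stood at 0.50 ± 0.25 without passing (limma adjusted p = 0.128). Under upper quartile scaling hdac2.L passed as higher, at 0.79 (limma adjusted p = 0.0306).

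Class II deacetylases, some of which shuttle between cytoplasm and nucleus, included 3 calls in 7 tested genes (42.9%, against 55.8% of all genes). Their median of −0.18 turned to 0.11 under upper quartile scaling, while that of all genes went from 0.01 to 0.30. Normalized counts of hdac7.L were 853, 743 and 799 in DMSO and 544, 357 and 437 in treated libraries, a fall of 0.86 ± 0.19 without overlap (limma adjusted p = 0.00823). Its homeolog hdac7.S rose by 1.43 ± 0.49 (limma adjusted p = 0.0437) from 56.9, 73.5 and 64.2 to 83.9, 334 and 192, with the treated libraries far apart from one another. The hdac7.S call was lost without DMSO a, b or c or treated b or c (limma adjusted p = 0.112, 0.0800, 0.0994, 0.107 and 0.114). From low counts of 23.9, 22.8 and 3.71, hdac4.L rose to 71.6, 60.5 and 55.3, by 2.17 ± 0.68 (limma adjusted p = 0.0316), a call lost without treated a, b or c (limma adjusted p = 0.0614, 0.0737 and 0.0725).

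Sirtuins, the NAD-dependent deacylases, were higher in 4 (36.4%) and lower in 1 (9.09%) of 11 tested genes, against 26.1% and 29.7% of all genes. The nuclear chromatin deacetylase genes sirt6 and sirt1 rose in both homeologs. Normalized counts of sirt6.S were 359, 326 and 368 in DMSO and 955, 1286 and 1272 in treated libraries, a rise of 1.72 ± 0.17 with groups apart (limma adjusted p = 3.37e-04). Its homeolog sirt6.L rose by 0.76 ± 0.24 (limma adjusted p = 0.0298), and the call went when leaving out DMSO a, DMSO b, treated b or treated c (limma adjusted p = 0.0738, 0.0874, 0.0663 and 0.0888). The sirt1 homeologs rose by 0.78 ± 0.19 for L and 1.19 ± 0.25 for S (limma adjusted p = 0.0103 and 0.00612). The largest fall of any member was that of sirt3.2.L, a gene of the sirt3 group, whose product acts in mitochondria in mammals. Its normalized counts were 1472, 1553 and 2010 in DMSO and 313, 505 and 616 in treated libraries, all below the controls, a fall of 1.85 ± 0.27 (limma adjusted p = 0.00142).

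The bromodomain genes had mostly small changes. Of 10 tested readers 5 were higher, but 2 or 3 in each fit that left out a library and 2 with no filter on low counts. The calls on brd7.L and brd1.S held under every alternative run. The larger was that of brd7.L, a subunit of the PBAF chromatin remodelling complex, chosen after its values were seen. Its normalized counts of 3080, 3520 and 3152 in DMSO and 6343, 8807 and 7732 in treated libraries did not overlap, a rise of 1.22 ± 0.15 (limma adjusted p = 7.05e-04). The other 4 calls, in brd1.L, brd1.S, brd2.S and brd8.L, named after their values were seen, had log2 fold changes of 0.31 to 0.48. With the library letter as a block brd8.L was lost (limma adjusted p = 0.0581) and brd3.S passed as higher (0.0172).

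Homeologs of the same symbol moved by different amounts about as often as in the table as a whole. The difference between the homeologs' log2 fold changes was tested with limma within libraries, where library scaling cancels, for 45 member pairs with both homeologs above the filter. It passed in 18 pairs (40.0%), against 38.0% of all 5796 pairs. The median absolute difference was 0.40 in member pairs and 0.61 in all pairs. Among the 18, the L fold change was the larger in 8 and the S fold change in 10. Both homeologs were called higher in 14 pairs (31.1%, against 17.9% of all pairs), both lower in 2 (4.44% against 18.8%) and 1 each way in 2 (4.44% against 3.78%). The 14 were brd1, eed, ezh2, hdac1, kdm1a, kmt2d, prmt1, prmt5, setd1a, sirt1, sirt6, suv39h2, suz12 and tet3. The pairs with both lower were kdm5c and setd3.

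The ehmt1 pair had the smallest adjusted p of the member pairs. Normalized counts of ehmt1.L were 5914, 3586 and 3765 in DMSO and 2465, 1542 and 2018 in treated libraries. Those of ehmt1.S were 1220, 859 and 899 in DMSO and 3044, 2764 and 2895 in treated libraries. Neither homeolog's groups overlapped: ehmt1.L fell by 1.13 ± 0.25 and ehmt1.S rose by 1.56 ± 0.16 (limma adjusted p = 0.00808 and 4.06e-04). The difference, L minus S, was −2.69 ± 0.16 on the log2 scale (limma adjusted p = 2.24e-04). The L homeolog held 81.4% ± 1.27 (SD, n = 3) of the pair's normalized counts in DMSO and 40.5% ± 4.49 in treated libraries.

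The prmt1 pair shifted the other way. The L homeolog held 29.8%, 21.2% and 22.9% of the pair in DMSO and 47.1%, 48.4% and 44.4% in treated libraries, so both copies rose and their shares drew level. The difference in log2 fold change was 1.43 ± 0.17 (limma adjusted p = 0.00157). With kat6a, dot1l, setd1b, kmt2c and hdac2, these pairs passed in each fit that left out a library. In kat6a, a MYST acetyltransferase gene, neither homeolog passed alone, at −0.55 ± 0.22 for kat6a.L and 0.59 ± 0.24 for kat6a.S, and kat6a.S passed with the library letter as a block (limma adjusted p = 0.0343), with upper quartile scaling (0.0156) and without DMSO a (0.0142), while kat6a.L passed as lower without DMSO b (0.0347). The pair differed by −1.13 ± 0.20 (limma adjusted p = 0.00595). The L share of kat6a fell from 79.3% ± 3.91 to 63.8% ± 2.29 (SD, n = 3).

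Among the other pairs, hdac4 had a difference of 2.67 ± 0.77 and hdac7 one of −2.29 ± 0.62 (limma adjusted p = 0.0327 and 0.0255). Both rest on low counts of 1 homeolog, and hdac4 was lost without DMSO a or without treated a, b or c (limma adjusted p = 0.0734, 0.0574, 0.0785 and 0.0845). The hdac7 pair was lost without DMSO a, b or c or treated c (limma adjusted p = 0.0786, 0.0544, 0.0686 and 0.0757). The tet3, prmt5 and eed pairs had differences of −0.23 ± 0.25, −0.05 ± 0.23 and −0.13 ± 0.15 (limma adjusted p = 0.515, 0.884 and 0.534), which does not show that their homeologs moved alike. Leaving out DMSO a, b or c left 9, 11 and 10 pairs, and leaving out treated c left 8.

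**Figure D4:**
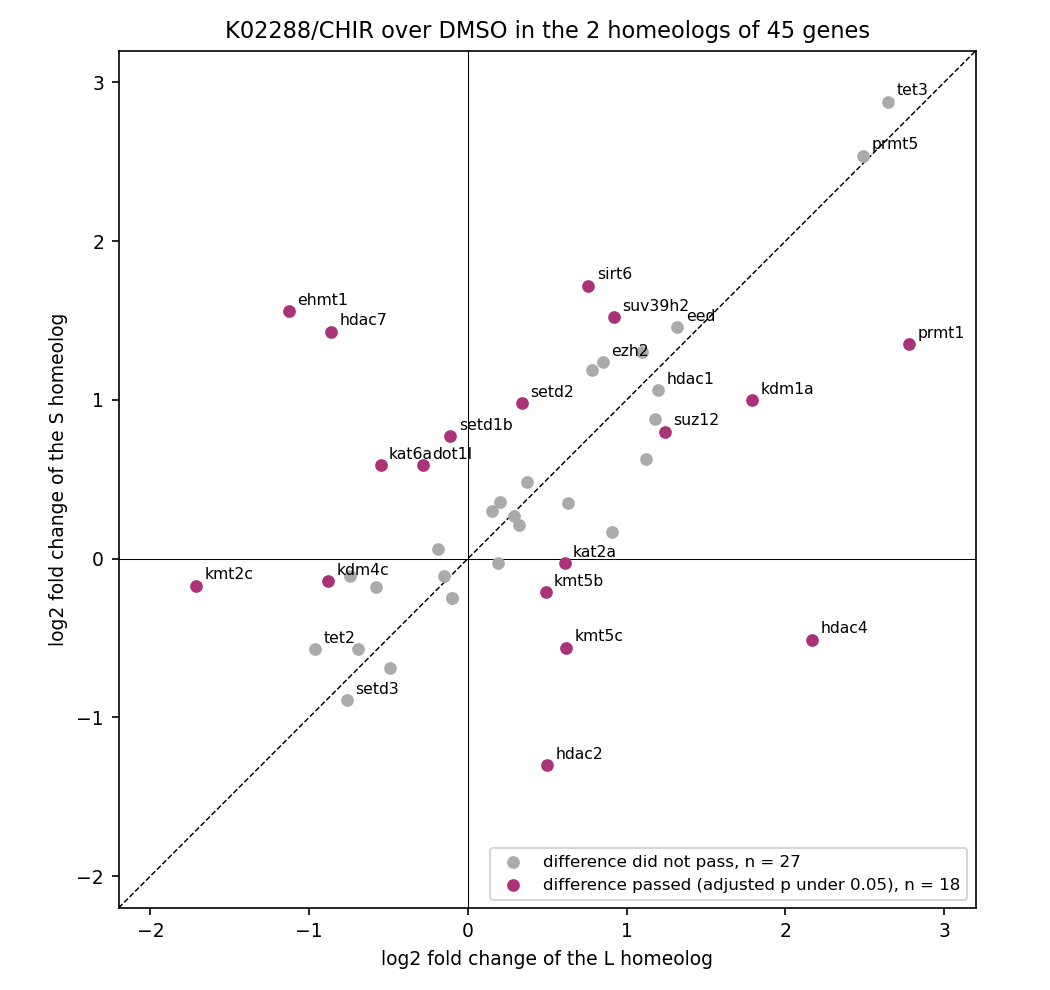
Log2 fold change of the L homeolog (x axis) against that of the S homeolog (y axis) for the 45 tested member pairs; purple points are the 18 pairs that differed, grey points those that did not pass, and the dashed diagonal marks equal change. The ehmt1 and hdac7 pairs lie in the quadrant where L fell and S rose, and prmt1 lies below the diagonal.

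**Figure D5:**
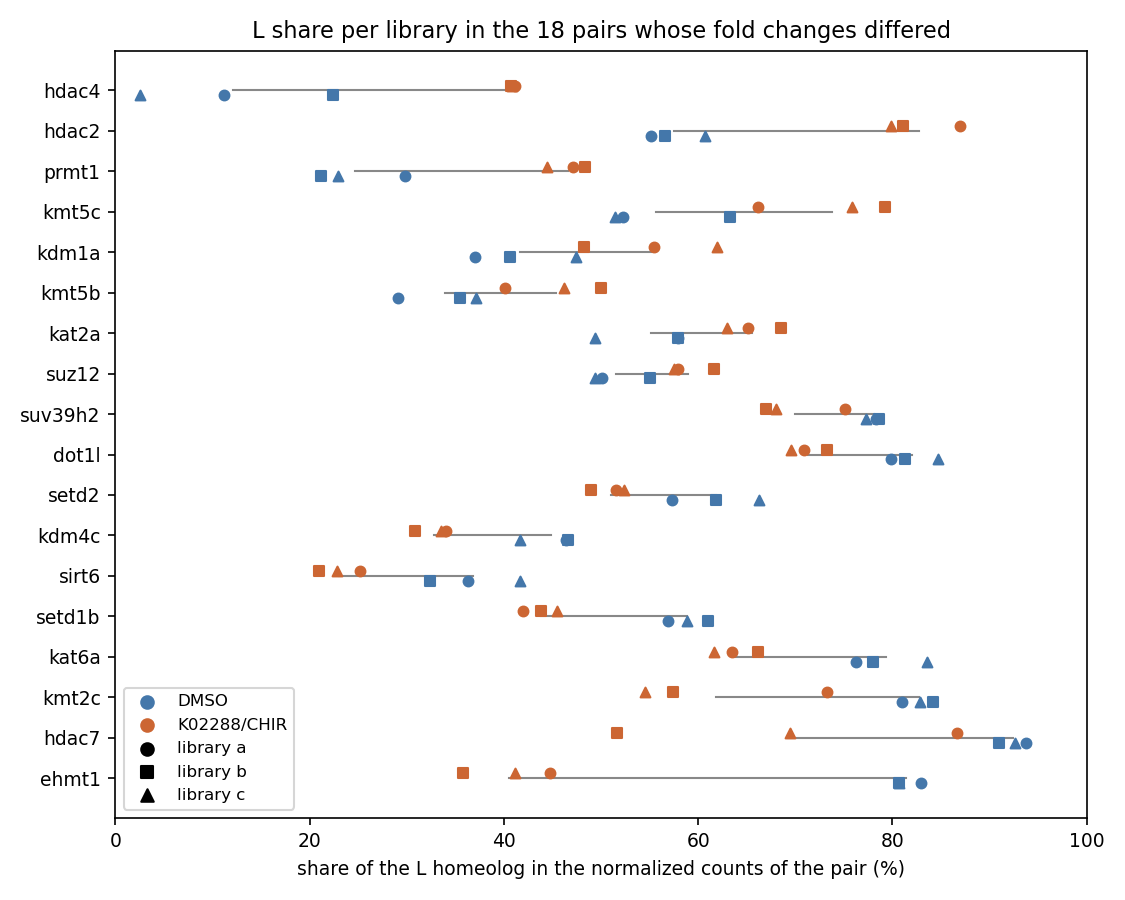
Share of the pair's normalized counts held by the L homeolog (x axis, percent) in DMSO (blue) and K02288/CHIR (orange) libraries for the 18 pairs that differed (y axis); circles, squares and triangles are libraries a, b and c and the line joins the group means. The ehmt1 share dropped from 81.4% to 40.5% and the prmt1 share went from 24.7% to 46.6%. The libraries of the groups do not overlap in any of the 18. These pairs were chosen by a test on the same values, so this adds no support.

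Genes that work beside these enzymes but lie outside the symbol rule were also called higher more often than lower in each of 5 lists. Over all genes tested, 26.1% were higher and 29.7% lower. Of 22 tested other writers 13 were higher and 2 lower (median log2 fold change 0.73), among them nsd2.L, a K36 methyltransferase gene, at 1.90 ± 0.15 (limma adjusted p = 1.68e-04). Of 33 cofactors of writers 19 were higher and 2 lower (median 0.56). Of 11 other erasers 6 were higher and 4 lower (median 0.53). Of 14 corepressor genes 8 were higher and 2 lower (median 0.65). Of 20 other readers 15 were higher and 1 lower (median 1.13). They include the heterochromatin protein genes that bind methylated K9 of histone H3, with cbx5.S at 1.51 ± 0.11, cbx3.S at 1.36 ± 0.12 and cbx1.S at 1.11 ± 0.11 (limma adjusted p = 1.53e-04, 2.22e-04 and 3.25e-04).

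The 10 members under the filter were hdac5.L, hdac5.S, hdac9.S, kdm3a-like.L, kdm4b.L, ezh1.L, ezh1.S, setd7.S, prmt3.L and prmt8.S. No library held a read of kdm4b.L or prmt3.L. Counts of hdac9.S were 1.84, 1.04 and 0 in DMSO and 20.7, 6.23 and 7.63 in treated libraries, without a test. Its homeolog hdac9.L, with 1.84, 10.4 and 0 against 24.5, 11.6 and 15.3, had a log2 fold change of 2.45 ± 0.92 and missed the threshold (limma adjusted p = 0.0583). With upper quartile scaling or a pseudocount of 5 hdac9.L passed (limma adjusted p = 0.0375 and 0.0463). It did not with edgeR or DESeq2 (adjusted p = 0.131 and 0.144).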

How the data were processed

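The values come from 1 gene table of the series with a column for each of 6 libraries. Per the file headers, the authors' values are normalized counts, a signal per gene in which a library's reads are divided by its size factor, and the tool behind them is DESeq, version not stated, per the submitters' processing notes. Aligner, read counter, build and gene models were not given in the sources used here, so reads of near-identical homeologs could be split between them in an unknown way. Whole reads could be recovered: each of the 184429 deposited values above 0 (100%) came out as a whole number of reads to within 0.01. The table's 5 summary lines stayed out of library sizes and tests; in each library they include 10.9% to 12.8% of reads in no feature, 0.439% to 0.716% ambiguous and 4.93% to 11.1% aligned at more than 1 place, each as a share of all reads counted in the table, these lines included. A broken line (1) was mended and an empty line (1) skipped. Libraries held 33706389 to 43155031 reads on genes.

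All 22932 genes with a mean of at least 10 were fitted with limma 3.58.1 (R 4.3.3) on log2(normalized count + 1), with trend and no block, K02288/CHIR against DMSO, and p-values were Benjamini-Hochberg adjusted over all of them. Fold changes are on this scale, which can understate or overstate the change of low genes. The value of hdac4.L was 2.17 here and 1.88 with edgeR and with DESeq2. That of kat2b.S was −0.77 here, −0.86 with edgeR and −0.88 with DESeq2. Homeolog differences were fitted the same way on log2(L + 1) minus log2(S + 1) over all 5796 pairs. Alternatives were edgeR 4.0.16 and DESeq2 1.42.0 on recovered reads, upper quartile scaling, a pseudocount of 5, no filter, a mean of at least 50, each library left out, and a block by library letter; edgeR called 12390 of all genes and 64 members. Deviations from the group means correlated between libraries of the same letter at 0.326, 0.402 and 0.319 (22932 genes). Between different letters they correlated at −0.228 to −0.0905. Libraries of the same letter thus varied together, although the labels name no pairs. Fits without a block do not use this, and the calls that the block changes are given with the results. The fits were tested on simulated data in which few genes changed, equally in both directions. Here 55.8% of genes passed, so that simulation does not test the effect of scaling. The members, the companion and marker lists and the rule for named genes were chosen with earlier results of these data known. That rule took the 12 largest rises and falls with a mean of at least 50 and groups apart, a list of well-studied genes, every pair that differed and up to 4 genes with the smallest adjusted p of each companion list. Values of a few of the genes that this rule names are not reported here.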

Additional observations from a re-analysis of the deposited data

How the results depend on the processing

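The count of members called lower, 14, was 9 under upper quartile scaling, and 9 to 17 when a library was left out, with 9 without DMSO c. The count of members called higher, 53, was 41 to 48 when a library was left out. Over all genes the count higher, 5995, was 4591 to 5949 in those fits, and the count lower, 6811, was 5712 to 7029. Under upper quartile scaling 5594 of all genes were lower. All 53 and 14 were called by DESeq2 and 51 and 13 of them by edgeR. The number of member pairs whose homeologs differed, 18, was 8 to 18 when a library was left out: 9, 11 and 10 without DMSO a, b and c, 12 without treated b and 8 without treated c. Under upper quartile scaling 19 tested members changed sign, none of them past the threshold under either scaling. Among those that the rule for named genes takes, the log2 values were then 0.01 for dot1l.L, 0.26 for kat2a.S, 0.15 for kdm4c.S, 0.12 for kmt2c.S, 0.09 for kmt5b.S and 0.18 for setd1b.L. When a library was left out, kmt2c.S ranged from −0.40 without DMSO b to 0.13 without DMSO a and kat2a.S from −0.14 without DMSO a to 0.07 without DMSO c. The cause was not tested.

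The replicate block by library letter gave 54 members higher, 17 lower and 20 differing pairs, and 6522 of all genes higher and 7276 lower. Beside the changes given above it lost brd8.L (limma adjusted p = 0.0581) and gained hdac6.L, brd3.S and the kdm3a and kdm3b pairs (limma adjusted p = 0.0317, 0.0172, 0.020 and 0.0198), and it changed no other call reported here. Calls on single members gained when a library was left out, beside tet2, were kat6a.S (0.0142) and brd3.S (0.0316) without DMSO a, hdac9.L (0.0143) and kat6a.L (0.0347) without DMSO b, and hdac6.L (0.0166) and kmt5c.S (0.0129) without treated a, given as limma adjusted p. Pairs gained were kdm3b (0.0243), kdm7a (0.0448) and kmt5a (0.0409) without treated a and kdm3a (0.0238) without treated b. With 3 libraries a group, low genes such as hdac4.L, hdac7.S and hdac2.S are the least precise.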

Other observations

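The table holds 26 further entries with a provisional identifier that the RefSeq gene table pairs with a symbol of these families. They are outside the symbol rule, and were looked up after the members' values were seen. Of 20 tested, 7 were higher, 1 was lower and 12 did not pass. Over all genes 55.8% passed, 26.1% as higher and 29.7% as lower. The de novo DNA methyltransferase dnmt3a, absent from the genes the rule found, has 3 such entries. The most covered, LOC108718324, had normalized counts of 204, 229.9 and 177 in DMSO and 483, 379.7 and 1016 in treated libraries, a rise of 1.49 ± 0.37 on the log2 scale (limma adjusted p = 0.0122). Another entry, LOC108716062, stood at −0.90 ± 0.42 and missed the threshold (limma adjusted p = 0.108). The only entry lower was that of hdac11, LOC108704007, at −1.84 ± 0.61 (limma adjusted p = 0.0379). It no longer passed with upper quartile scaling (0.0537), with edgeR (adjusted p = 0.0776), and without DMSO a, b or c or treated b or c (limma adjusted p = 0.103, 0.0647, 0.0992, 0.0828 and 0.0639). Both kdm5a entries, LOC108704575 and LOC108712258, were higher by 0.67 ± 0.13 and 0.72 ± 0.15 (limma adjusted p = 0.00510 and 0.00624). The kdm6a entries, LOC108708200 and LOC108708201, stood at 0.27 ± 0.16 and 0.28 ± 0.22 without passing (limma adjusted p = 0.197 and 0.329). The kmt2a entry, LOC108696457, stood at −0.42 ± 0.40 and did not pass either (limma adjusted p = 0.410). A prmt6 entry, LOC108707441, was higher by 1.34 ± 0.28 (limma adjusted p = 0.00658), unlike prmt6.S of the symbol rule, at −0.64 ± 0.26 without passing (0.0723).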
